A study of Mus musculus with 13 samples.

Results

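Described here are 6 genes of mouse embryonic fibroblasts (MEFs) whose expression was high in cells depleted of Setdb1. They are the noncoding genes 2610507I01Rik and Gm11019 and the protein-coding genes Angptl7, Apln, Cpn1 and Capn6. They were chosen from the 25965 gene rows of the expression table because their values were much higher with hairpins against Setdb1 than with control hairpins. The Setdb1 hairpin against control hairpin values below are therefore a description and carry no test. All 6 were among the 13134 genes tested, which reached 1 RPM (a gene's reads per 1 M reads of its library) in 3 or more of 12 libraries. 2610507I01Rik passed that limit only through the 3 libraries with a Setdb1 hairpin and 5-azacytidine (5-aza), and Cpn1 only through the 6 libraries with a Setdb1 hairpin.

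Setdb1 methylates histone H3 at lysine 9 (H3K9), and the trimethyl mark it sets keeps many retroelements and tissue-restricted genes silent. DNA methylation is a separate silencing layer that is often found at the same places. 5-aza is a cytidine analogue that is built into the DNA of dividing cells and traps DNA methyltransferases, so that methylation is lost as cells divide. Both layers are used in somatic cells to hold genes of other lineages off.

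Poly(A) RNA was sequenced from primary female XXist∆A/XPGK MEFs, which carry an Xist deletion on one X chromosome and an X chromosome of the PGK strain, derived from E13.5 embryos. The cells were transduced with a retrovirus that expresses a hairpin, a short RNA processed into a guide against one transcript, and were selected with puromycin. They were then left untreated or given 5-aza for 24 h from day 3, and all were harvested on day 7. A control or a Setdb1 hairpin, each with or without 5-aza, gave 4 groups of 3 libraries. In each control group replicates A and B carried a non-silencing hairpin and the third library a luciferase hairpin. In each Setdb1 group replicates A and B carried shSetdb1.4 and the third library shSetdb1.6. According to the text of the study, Setdb1 hairpins went into cells with a gene-trap allele of Setdb1 (Setdb1 +/gt) and the non-silencing hairpin into wild-type cells. The genotype given the luciferase hairpin was not stated, and the labels give no genotype, so the effect of the hairpin and that of the genotype cannot be told apart. The labels do not say which cultures came from separate embryos, and p-values then measure only the spread between these samples, which may be technical.

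Reads in genes numbered 36.4 to 51.3 M per library of the 12, so that 1 read was worth 0.0170 to 0.0239 RPM. The targeted transcript, Setdb1, held 46.25 ± 0.103 RPM (SD over 3 libraries) in control cells and 14.06 ± 1.72 RPM with Setdb1 hairpins, and at 43.36 ± 0.631 and 12.9 ± 2.16 RPM with 5-aza. The fibroblast markers summed to between 14000 and 23480 RPM in every library. Summed endothelial markers lay between 4.22 and 8.20 RPM with Tie1 at or near 0, and liver markers summed to at most 0.173 RPM with Alb and Ttr at 0 in every library. In 3 of the 7 marker lists every library with a Setdb1 hairpin alone was above every untreated control. Of the single genes tested, 24% were separated in this direction. Each of the 3 sums was led by 1 gene, so nothing is read from this count. In the endothelial list every library with a Setdb1 hairpin alone was below every untreated control, at 6.21 to 6.68 against 7.05 to 8.20 RPM. The 5 epithelial markers summed to 2.68 to 3.23 RPM with control hairpins, 8.66 to 10.7 RPM with control hairpins and 5-aza, 9.62 to 10.6 RPM with Setdb1 hairpins and 20.9 to 23.6 RPM with both, most of it Krt18. Epcam and Cdh1 stayed at means below 0.08 RPM in each group. The 4 cartilage markers, led by Col2a1, summed to 76.7 to 81.2 RPM with control hairpins and 92.5 to 128 RPM with Setdb1 hairpins. The 4 muscle markers, nearly all of it Des, summed to 12.1 to 15.3 RPM with control hairpins, 22.6 to 28.6 RPM with control hairpins and 5-aza, 19.4 to 19.6 RPM with Setdb1 hairpins and 22.8 to 28.1 RPM with both. The part of these lists in the results below was not tested. In RNA from whole cultures, fewer cells that express a gene and less RNA of that gene per cell cannot be told apart.

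The guides of both Setdb1 hairpins are shown because each gene is compared between them below. Both are 22 bases long, are written 5′ to 3′ as the study's oligo list gives them, and have their seed (bases 2 to 8) in capitals.
shSetdb1.4: tTTGTCTGcaaagtcatctgtc
shSetdb1.6: tAGATCTTgagaactgcttttc
All 22 bases of each guide pair with Setdb1 mRNA (GENCODE M21, build GRCm38, minus strand). The shSetdb1.4 site lies in coding exon 16 of 22 (chr3:95327805-95327826) and the shSetdb1.6 site in coding exon 5 (chr3:95348003-95348024). The 2 seeds have different letters, and the longest annotated transcript of each of the 6 genes holds no 7-base match to either seed.

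The 250 bases before the RefSeq start (GRCm38.p6) are shown for 3 of the genes, with every CpG in capitals, because CpG is the base pair step at which mammalian DNA is methylated and 5-aza acts on that mark. Gm11019 and Angptl7 are the 2 genes called higher with 5-aza in control cells (limma adjusted p under 0.05, without a replicate block). Apln is shown as one that was not called there. Sequences are written 5′ to 3′ on the strand of the gene.
Gm11019 (chr13:97434720-97434969, plus strand): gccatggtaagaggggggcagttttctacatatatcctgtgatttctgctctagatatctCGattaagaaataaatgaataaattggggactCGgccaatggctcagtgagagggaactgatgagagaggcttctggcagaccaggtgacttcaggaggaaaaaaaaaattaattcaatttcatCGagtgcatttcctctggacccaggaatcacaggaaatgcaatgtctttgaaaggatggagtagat
Angptl7 (chr4:148500463-148500712, minus strand): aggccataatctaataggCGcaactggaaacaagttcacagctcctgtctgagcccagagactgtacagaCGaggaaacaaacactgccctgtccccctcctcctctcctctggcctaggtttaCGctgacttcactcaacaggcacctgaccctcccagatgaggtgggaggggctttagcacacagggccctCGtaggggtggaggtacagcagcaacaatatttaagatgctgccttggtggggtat
Apln (chrX:48034854-48035103, minus strand): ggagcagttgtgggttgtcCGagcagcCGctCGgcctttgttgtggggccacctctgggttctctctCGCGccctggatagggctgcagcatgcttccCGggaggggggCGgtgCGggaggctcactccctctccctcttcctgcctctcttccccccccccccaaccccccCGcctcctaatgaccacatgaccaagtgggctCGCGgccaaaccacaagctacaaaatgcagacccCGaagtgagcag
All 6 genes matched an entry of the RefSeq table. There were 3 CpG before Gm11019, 4 before Angptl7, 5 before Capn6, 7 before Cpn1, 12 before Apln and 24 before 2610507I01Rik. Over all 32851 RefSeq promoters of this length the median was 6 CpG. 29.0% of promoters had fewer CpG than Gm11019, 37.8% fewer than Angptl7, 44.4% fewer than Capn6, 53.7% fewer than Cpn1, 66.5% fewer than Apln and 88.0% fewer than 2610507I01Rik. Of the window before 2610507I01Rik, 196 bases lie in an exon of Mrpl55, a mitochondrial ribosomal protein gene on the other strand, so its letters are not printed. These counts describe sequence, and methylation was not measured in these libraries.

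2610507I01Rik (ENSMUSG00000085882, chromosome 11, 59199836 to 59202385, minus strand) is a long noncoding RNA gene with 2 exons. With control hairpins it held 3 reads with the luciferase hairpin, 0 in non-silencing replicate A and 1 in B. With control hairpins and 5-aza it held 0, 2 and 1 reads in the same order. With Setdb1 hairpins it held 36 reads (0.758 RPM) and 58 reads (0.986 RPM) in shSetdb1.4 replicates A and B and 41 reads (0.978 RPM) with shSetdb1.6. The gene was thus near the limit of detection in every control hairpin library and clearly counted in every Setdb1 hairpin library. Pooled over each group, 135 reads stood against 4, a ratio of RPM of 34.1. With 5-aza, the Setdb1 hairpin libraries held 1.08 and 1.18 RPM with shSetdb1.4 and 1.11 RPM with shSetdb1.6. The pooled reads were then 171 against 3, a ratio of 55.5. Both ratios describe the difference for which the gene was chosen, so no interval is given for them. The Poisson intervals given below for single libraries cover counting error only and leave out the spread between libraries. Copies made by PCR are not independent molecules, so these intervals may be too narrow even for counting error.

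5-aza left 2610507I01Rik without a call in control cells, with a log2 fold change of -0.18 (SE 0.49, limma adjusted p 0.829) on pooled reads of 3 against 4. In Setdb1 hairpin cells the log2 fold change was 0.32 (SE 0.49), which carries no test because the gene passed the limit of 1 RPM only through the libraries with 5-aza in that comparison. In the Setdb1 hairpin cells the 3 libraries with 5-aza held 1.08 to 1.18 RPM and the 3 without held 0.758 to 0.986 RPM. That these groups did not overlap follows from the same limit, so nothing is read from it.

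Gm11019 (ENSMUSG00000078952, chromosome 13, 97434970 to 97497007, plus strand) is named Lncenc1 in GENCODE, a long intergenic noncoding RNA known from naive embryonic stem cells. Another annotated gene overlaps its interval on the other strand, with no shared exon. Gm11019 held 1.64 RPM with the luciferase hairpin and 1.49 and 1.58 RPM with the non-silencing hairpin. With 5-aza these became 5.56, 3.29 and 3.80 RPM. With Setdb1 hairpins it held 9.20 and 11.2 RPM (shSetdb1.4) and 10.9 RPM (shSetdb1.6). The 4 groups did not overlap, and the highest was the one with both: 34.8 and 37.6 RPM with shSetdb1.4 and 40.4 RPM with shSetdb1.6. The group means were 1.57 ± 0.0764, 4.22 ± 1.19, 10.4 ± 1.08 and 37.6 ± 2.80 RPM (SD, n = 3 each). 5-aza raised Gm11019 by 1.39 on the log2 scale (SE 0.15, limma adjusted p 0.000162) in control cells and by 1.85 (SE 0.15, adjusted p 3.79e-05) in Setdb1 hairpin cells. The responses differed by 0.46 on the log2 scale (SE 0.22). Without 5-aza the Setdb1 hairpin level was 2.73 above control on the log2 scale, and with 5-aza it was 3.19 above.

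Angptl7 (ENSMUSG00000028989, chromosome 4, 148495183 to 148500460, minus strand) encodes a secreted glycoprotein of the angiopoietin-like family that is known from the cornea and other eye tissues. The gene lies inside Mtor, on the other strand and with no shared exon. It held 5 reads (0.106 RPM) with the luciferase hairpin and 3 and 4 reads (0.0530 and 0.0863 RPM) with the non-silencing hairpin. With 5-aza the same hairpins gave 1.39, 0.840 and 0.745 RPM. Every control library with 5-aza was above every one without, and 12 reads in all became 146. 5-aza raised Angptl7 by 3.60 on the log2 scale in control cells (SE 0.43, limma adjusted p 0.000266), which was number 6 by size among the rises of the 13134 genes tested. On the log2(RPM + 1) scale the same rise was 0.87 (adjusted p 0.0358), so its size rests on the 12 control reads.

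With Setdb1 hairpins alone Angptl7 held 1.01 and 3.79 RPM in shSetdb1.4 replicates A and B and 2.0 RPM with shSetdb1.6. The spread between these 3 libraries was wider than counting error, since the 95% Poisson intervals of replicates A (0.745 to 1.34 RPM) and B (3.31 to 4.32 RPM) lie far apart although both carried the same hairpin. With 5-aza as well, the level was 3.40 and 5.73 RPM with shSetdb1.4 and 5.29 RPM with shSetdb1.6. These 2 groups overlapped, at 1.01 to 3.79 against 3.40 to 5.73 RPM. The rise with 5-aza in Setdb1 hairpin cells, 1.25 on the log2 scale (SE 0.43, limma adjusted p 0.0486), was close to the threshold. It was lost when any one of 4 of the 6 Setdb1 hairpin libraries was left out: 0.77 (adjusted p 0.189) without shSetdb1.4 replicate A, 1.26 (0.0952) without shSetdb1.6, and 1.10 (0.149) and 1.16 (0.124) without shSetdb1.4 replicate B with 5-aza and shSetdb1.6 with 5-aza. The log2 response was smaller in Setdb1 hairpin cells by 2.35 (SE 0.61), and on the log2(RPM + 1) scale this difference was 0.030, that is, of the other sign.

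Apln (ENSMUSG00000037010, chromosome X, 48025146 to 48034853, minus strand) encodes apelin, a secreted peptide that acts on the receptor encoded by Aplnr and is known from growing blood vessels and fat. It held 5.38 RPM with the luciferase hairpin and 5.90 and 5.39 RPM with the non-silencing hairpin, and 4.98, 3.85 and 4.41 RPM with 5-aza. With Setdb1 hairpins it held 9.85 and 12 RPM (shSetdb1.4) and 14.6 RPM (shSetdb1.6). With both it held 10.6, 11.1 and 14.1 RPM in that order. All 6 Setdb1 hairpin libraries were above all 6 control hairpin libraries, and the 2 Setdb1 groups overlapped. The Setdb1 hairpin level was 1.11 above control on the log2 scale without 5-aza and 1.43 with it. The 3 control libraries with 5-aza were each below the 3 without, by 0.34 on the log2 scale (SE 0.15, limma adjusted p 0.123), which did not pass the test. In Setdb1 hairpin cells the difference was -0.020 (SE 0.15, adjusted p 0.932).

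Cpn1 (ENSMUSG00000025196, chromosome 19, 43956307 to 43986556, minus strand) encodes the catalytic subunit of carboxypeptidase N, a plasma enzyme made in the liver that trims kinins and anaphylatoxins. It held 7 to 10 reads in each control library (0.149 to 0.177 RPM) and 8 to 12 reads with 5-aza (0.166 to 0.237 RPM). With Setdb1 hairpins it held 2.13 and 2.84 RPM (shSetdb1.4) and 2.96 RPM (shSetdb1.6). With 5-aza as well it held 1.56, 2.85 and 2.61 RPM in that order. Both Setdb1 groups lay far above both control groups, by 4.04 on the log2 scale without 5-aza and 3.46 with it. 5-aza passed the test in neither kind of cell, with log2 differences of 0.38 (SE 0.24, limma adjusted p 0.291) and -0.21 (SE 0.24, adjusted p 0.537). Of the 4 liver genes read beside it, Alb and Ttr were at 0 in all 12 libraries. Afp and Apoa1 were at means of 0.0142 and 0.00719 RPM with control hairpins and 0 and 0.00701 RPM with Setdb1 hairpins alone. With 5-aza they were at 0.0542 and 0 RPM in control cells and highest, at 0.124 and 0.0200 RPM, in Setdb1 hairpin cells. These are very low levels, where 1 read was worth 0.0170 to 0.0239 RPM.

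Capn6 (ENSMUSG00000067276, chromosome X, 143802231 to 143827414, minus strand) encodes a calpain that lacks the catalytic cysteine and binds microtubules, known from placenta and embryonic muscle. An exon of the gene Gm47298 overlaps it on the same strand, and 1.09% of its 50-base words occur in other transcripts, against 0% for the other 5 genes. It held 2.08 RPM with the luciferase hairpin and 3.22 and 3.22 RPM with the non-silencing hairpin. With 5-aza these were 3.42, 7.08 and 4.0 RPM. With Setdb1 hairpins it held 10.0 and 5.63 RPM (shSetdb1.4) and 6.03 RPM (shSetdb1.6), and with both 8.24, 4.16 and 3.49 RPM. Without 5-aza the Setdb1 hairpin libraries were all above the controls, by 1.33 on the log2 scale. With 5-aza the groups overlapped, at 3.49 to 8.24 RPM against 3.42 to 7.08 RPM, and the difference was 0.10 (-0.27 to 0.41 with each library left out).

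With 5-aza Capn6 was higher in all 3 control hairpin cultures, by 0.32 to 1.14 on the log2 scale, and lower in all 3 Setdb1 hairpin cultures, by 0.28 to 0.79. The means were 0.72 (SE 0.35, limma adjusted p 0.170) and -0.50 (SE 0.35, adjusted p 0.297), a difference of -1.23 (SE 0.50), and neither mean passed the test. With the hairpin and replicate label as a block, both the rise in control cells (adjusted p 0.00342) and the fall in Setdb1 hairpin cells (adjusted p 0.0158) passed it. The residuals of the 2 libraries that share such a label correlated at 0.41 to 0.63 in Setdb1 hairpin cells and at 0.0999 to 0.59 in control cells. Capn6 was chosen for higher values with Setdb1 than with control hairpins, and the untreated libraries are the baselines of both changes. That choice alone can favour a rise in control cells and a fall in Setdb1 hairpin cells, so nothing is read from the block's calls.

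**Figure D1:**
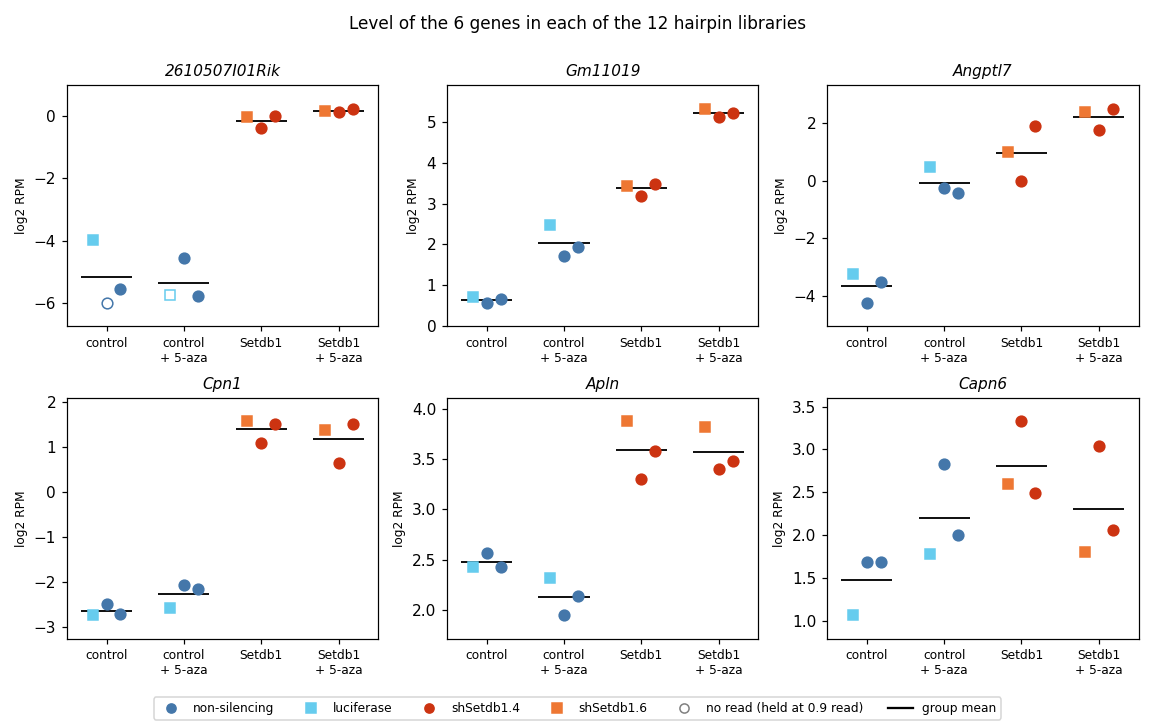
Log2 RPM (y axis) of each of the 6 genes in the 12 hairpin libraries, by group (x axis), with 1 point per library, the hairpin as colour and shape, and a bar at the group mean. Gm11019 climbs through all 4 groups from a mean of 1.57 to 37.6 RPM, while Cpn1, Apln and 2610507I01Rik have all 6 Setdb1 hairpin libraries above all 6 control hairpin libraries and Capn6 overlaps between the 2 groups with 5-aza.

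Without 5-aza all 6 genes had groups that did not overlap, higher with Setdb1 hairpins, as 24% of all genes tested did. With 5-aza 5 of the 6 did, against 24.6% of all genes, the exception being Capn6. The genes were chosen for this difference, so nothing is read from these counts. By the size of the rise without 5-aza they were number 2 (2610507I01Rik), 3 (Angptl7), 5 (Cpn1), 13 (Gm11019), 66 (Capn6) and 101 (Apln) of 13134. With 5-aza 2610507I01Rik was number 1 and Capn6 number 4605.

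5-aza alone was not used to choose the genes, although its contrasts share control or Setdb1 hairpin libraries with the ones that were. In control cells 2 of the 6 genes were called, Angptl7 and Gm11019, both higher, where 18.8% of the genes tested were called in either direction. In Setdb1 hairpin cells the same 2 were called, where 28.9% were. The 6 genes are too few to set such a count apart from either share. The other 4 genes showed log2 differences between -0.34 and 0.72 in control cells and between -0.50 and 0.32 in Setdb1 hairpin cells. In control cells the 95% interval was -0.044 to 1.49 for Capn6 and -0.15 to 0.91 for Cpn1, so that a 2-fold rise lay inside the first and outside the second. The difference between the responses in the 2 kinds of cell is also the difference between the 2 Setdb1 hairpin rises for which the genes were chosen, so it is given for each gene as a description. By limma 0 of the 6 genes and 0.388% of the genes tested were called for it, 2 of the 6 (Angptl7 and Capn6) and 701 of the 13134 had an unadjusted p under 0.05, and nothing is read from these counts. With limma voom on the recovered reads 0 of the 6 were called, and 2 of the 6 and 692 of all genes had an unadjusted p under 0.05.

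**Figure D2:**
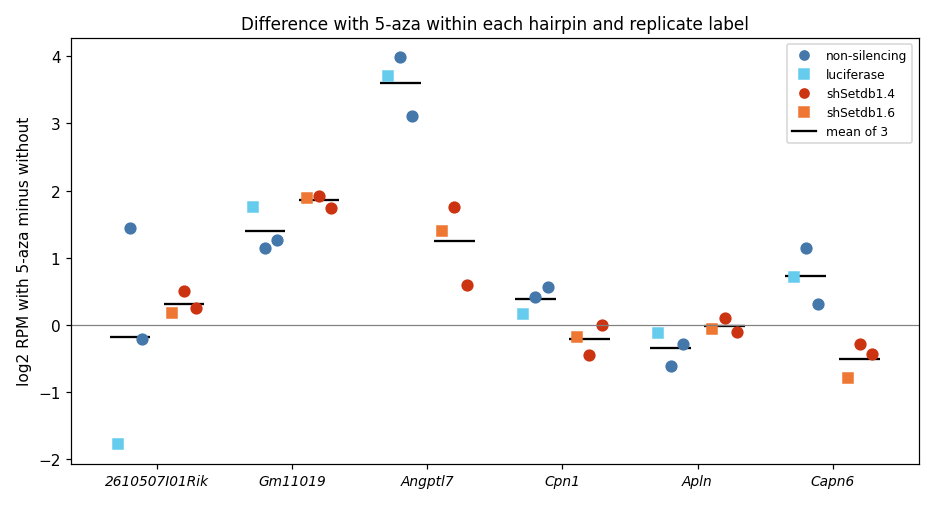
Difference in log2 RPM with 5-aza minus without (y axis) for each gene (x axis) within each hairpin and replicate label, control hairpins at left (blue) and Setdb1 hairpins at right (red and orange), with a bar at the mean of 3. Angptl7 is 3.11 to 3.99 higher in control cells and 0.60 to 1.75 higher in Setdb1 hairpin cells, Gm11019 is higher in all 6, and Capn6 is above 0 in control cells and below 0 in Setdb1 hairpin cells.

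The hairpin alone and 5-aza alone were compared by their levels, side by side. Setdb1 hairpins alone gave Gm11019 10.4 RPM and 5-aza alone 4.22 RPM, and the 2 groups did not overlap. For Angptl7 the means were 2.27 ± 1.41 and 0.991 ± 0.348 RPM, and the groups overlapped at 1.01 and 1.39 RPM. For Capn6 they were 7.23 ± 2.44 and 4.83 ± 1.97 RPM and also overlapped. For 2610507I01Rik, Cpn1 and Apln every library with a Setdb1 hairpin alone was above every library with 5-aza alone. The genes were chosen for high values with Setdb1 hairpins, and the share of all genes with such a separation was not counted. Nothing is therefore read from which of these groups overlap.

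Both Setdb1 hairpins gave levels above control for each gene in untreated cells. With shSetdb1.4 (mean of 2 libraries) the level without 5-aza was 30.6 times the control mean for 2610507I01Rik, 29.3 times for Angptl7, 15.6 times for Cpn1, 6.53 times for Gm11019, 2.76 times for Capn6 and 1.96 times for Apln. With shSetdb1.6 (1 library) it was 34.4, 24.5, 18.6, 6.93, 2.13 and 2.63 times in the same order. With 5-aza the 2 hairpins gave 54.8 and 54.1 times for 2610507I01Rik, 10.6 and 12.5 times for Cpn1, 8.58 and 9.59 times for Gm11019, 4.61 and 5.34 times for Angptl7 and 2.46 and 3.19 times for Apln. Capn6 was the exception there, at 1.28 times the control mean with shSetdb1.4 and 0.722 times with shSetdb1.6. The ratios for 2610507I01Rik rest on 4 and 3 control reads.

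Setdb1 itself was lower with shSetdb1.6 than with shSetdb1.4, by 0.37 on the log2 scale (SE 0.046, limma adjusted p 0.0299). This call was lost in 5 of the 6 fits that left out 1 Setdb1 hairpin library (adjusted p 0.0504 to 0.686), the exception being shSetdb1.4 replicate B without 5-aza, although Setdb1 stayed lower by 0.31 to 0.43. None of the 6 genes differed between these hairpins by the same test, and 0.0305% of the genes tested did. Apln came closest, at 0.41 higher with shSetdb1.6 (SE 0.10, 95% interval 0.18 to 0.63, unadjusted p 0.00248, adjusted p 0.209), with both shSetdb1.6 libraries above all 4 shSetdb1.4 libraries. Capn6 was 0.53 lower (interval -1.21 to 0.14). For Gm11019 the difference was 0.13 (-0.15 to 0.40), for Cpn1 0.29 (-0.25 to 0.83), for Angptl7 0.15 (-0.81 to 1.11) and for 2610507I01Rik 0.080 (-1.11 to 1.27). This fit counted the libraries with and without 5-aza of one label as separate, although their residuals correlated at 0.41 to 0.63 in Setdb1 hairpin cells. No fit with the label as a block was run for this comparison. The SEs and intervals may therefore be too narrow, and no 2-fold difference is called excluded by them. shSetdb1.6 had 1 library in each condition, so its own spread was not measured. Between the luciferase and non-silencing hairpins 0.00761% of genes differed and none of the 6 did, with Gm11019 closest at 0.37 higher with luciferase (adjusted p 0.181).

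Per kilobase of exon, the order of the levels changed between groups. With control hairpins Apln was highest at 1.77 RPM per kb, followed by Gm11019 at 0.474 and Capn6 at 0.364, and these 3 did not overlap. Cpn1 (0.0431), Angptl7 (0.0380) and 2610507I01Rik (0.0209) followed, with overlapping ranges. With Setdb1 hairpins and 5-aza Gm11019 was highest at 11.4 RPM per kb, then Apln at 3.79 and Angptl7 at 2.23, with no overlap among them. 2610507I01Rik (0.825), Capn6 (0.680) and Cpn1 (0.634) came last, and Capn6 overlapped both of the others.

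The genes described next to these 6 differed by at most 0.31 on the log2 scale without 5-aza. Of the genes whose interval lies within 100 kb, 13 tested ones are described, around 5 of the 6 genes, and none is described around Gm11019. Without 5-aza 2 of the 13 were higher with Setdb1 hairpins and 1 was lower, where 9.01% of all genes tested were higher and 3.4% lower. Mtor, the kinase gene in which Angptl7 lies, was at 56.2 RPM with control and 56.9 RPM with Setdb1 hairpins (log2 difference 0.018, limma adjusted p 0.843).

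Mrpl55 starts 0.101 kb from 2610507I01Rik on the other strand and rose from 4.74 to 5.86 RPM (0.31 on the log2 scale, SE 0.080, limma adjusted p 0.0287), against 5.01 for its neighbour. 2310033P09Rik, 5.94 kb away, fell by 0.25 (adjusted p 0.0344), and near Cpn1 Erlin1 rose by 0.25 (adjusted p 0.0204). Ocrl near Apln and Pak3, 4.43 kb from Capn6, were not called. With 5-aza 3 of the 13 were higher with Setdb1 hairpins (Erlin1, Chuk and Arf1, by 0.15 to 0.24) and none lower by limma, where 14.5% of all genes were higher and 5.37% lower. 5-aza in control cells left all 13 without a call by limma, against the 18.8% above, and in Setdb1 hairpin cells Mtor rose by 0.21 and Srm fell by 0.19, against the 28.9% above.

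**Figure D3:**
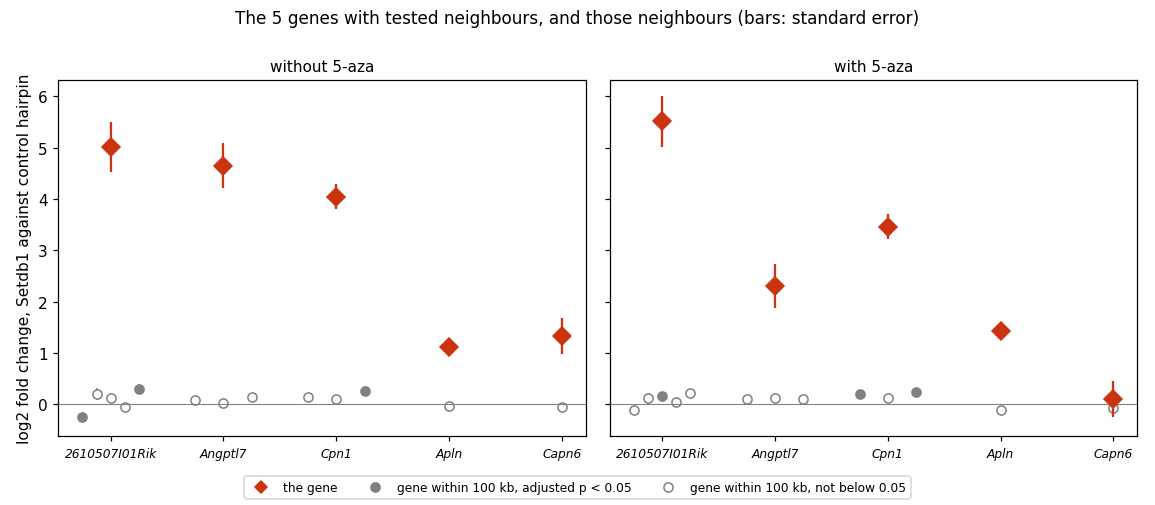
Log2 fold change of Setdb1 against control hairpin (y axis, bars are standard errors) for the 5 genes that have tested neighbours (red diamonds) and for 13 tested genes within 100 kb of them (grey, filled where the limma adjusted p is under 0.05), without 5-aza (left) and with it (right). The neighbours plotted lie between -0.25 and 0.31 on the left, where the 5 genes lie between 1.11 and 5.01.

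The families of the 4 protein-coding genes were read from lists chosen with earlier results of these data known. Of 25 other family genes tested, 3 were higher and 2 lower with Setdb1 hairpins without 5-aza, with a median log2 fold change of 0.024 against 0.031 over all genes tested, of which 9.01% were higher and 3.4% lower. With 5-aza 4 were higher and 2 lower (median -0.0086 against 0.047), where 14.5% and 5.37% of all genes were. With 5-aza in control cells 7 rose and 1 fell (median 0.069 against 0.042), where 18.8% of all genes were called in either direction. In Setdb1 hairpin cells 6 rose and 1 fell (median 0.11 against 0.058), where 28.9% were called.

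In the apelin system the receptor gene Aplnr held at most 3 reads in any library, so the ligand was counted in cells with almost no reads of its receptor. Of the 3 tested peptidases of this list, Furin was not called in any of the 4 contrasts of hairpin or 5-aza, and Ece2 was called only for 5-aza in control cells, where it rose by 0.19 (limma adjusted p 0.0211). Mme (neprilysin) was at 8.51 RPM with Setdb1 hairpins and 5-aza against 5.06 RPM with 5-aza alone (0.76 on the log2 scale, limma adjusted p 0.0214), and it rose with 5-aza in Setdb1 hairpin cells (0.60, adjusted p 0.0419). Among the angiopoietins, Angptl2 was the most abundant family gene listed with Angptl7 and rose by 0.32 (adjusted p 0.021), from 167 to 209 RPM. Angpt2 fell by 0.29 without 5-aza (adjusted p 0.0393). With 5-aza 0 of the 7 tested were higher with Setdb1 hairpins and 2 were lower. These were Angpt1, by 0.90 (limma adjusted p 0.00609), from 12.25 to 6.68 RPM, and Angpt2, by 0.29 (adjusted p 0.026). Angpt1 also fell with 5-aza in Setdb1 hairpin cells, by 0.68 (adjusted p 0.01755). Angptl2 and Angpt2 both rose with 5-aza in control cells, by 0.63 (adjusted p 0.000348) and 0.60 (adjusted p 0.000572), beside 3.60 for Angptl7. The receptor gene Tek was not called in any of these contrasts and Tie1 held 1 read in 1 library.

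Of the carboxypeptidases, Cpm, a membrane-bound relative of Cpn1 with a like specificity, rose by 0.52 with Setdb1 hairpins (limma adjusted p 0.00468), from 4.21 to 6.03 RPM, and Aebp1 by 0.34 (adjusted p 0.0205). Cpn2, which encodes the carrier subunit of the same plasma enzyme as Cpn1, was at no more than 0.603 RPM in any library and was not tested. The calpain list held 9 tested genes beside Capn6, among them those of a regulatory subunit and of the calpain inhibitor. Capn5 was the only one of these called with Setdb1 hairpins without 5-aza, and it fell by 0.37 (limma adjusted p 0.0262). The ubiquitous calpains were not called there, with log2 differences of 0.024 for Capn1 and 0.014 for Capn2.

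**Figure D4:**
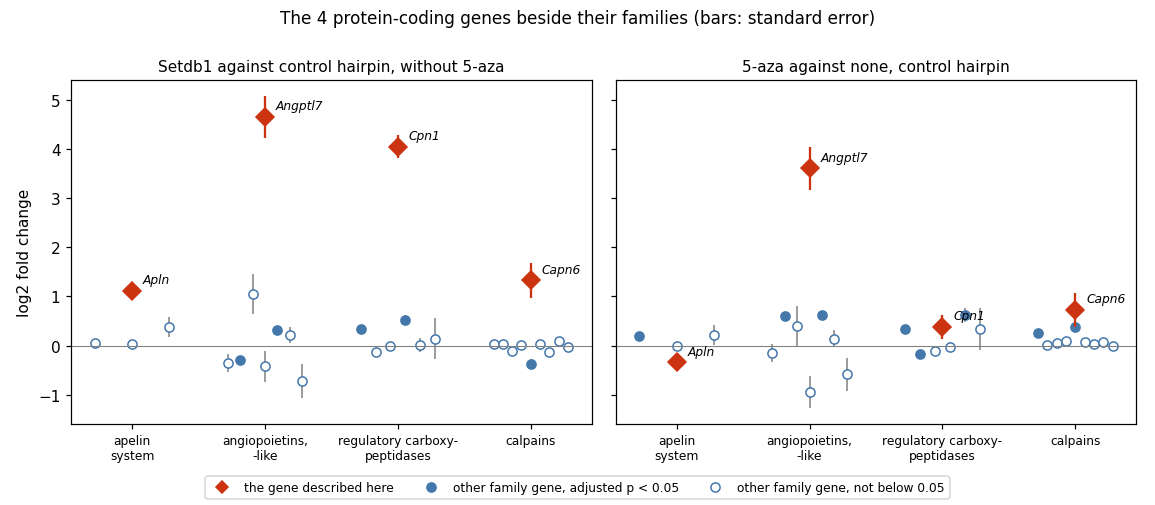
Log2 fold change (y axis, bars are standard errors) of Angptl7, Apln, Cpn1 and Capn6 (red diamonds) and of the other tested genes of 4 family lists (blue, filled where the limma adjusted p is under 0.05), for Setdb1 against control hairpin without 5-aza (left) and for 5-aza in control hairpin cells (right). On the left Angptl7 and Cpn1 stand at 4.65 and 4.04 and the highest other family gene is Angpt4 at 1.05, which was not called.

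The genes whose pattern was most like each of the 6 were taken by Pearson correlation of log2 RPM over the 12 hairpin libraries, as a description. The points share cultures and libraries, and any gene that splits by hairpin scores high. For 2610507I01Rik they were Tex15 (r = 0.988), a germline gene, Atf7ip (0.981), which encodes a partner of Setdb1, and Ulbp1 (0.979), which encodes a stress ligand of natural killer cells. Atf7ip was at 91.1 RPM with control and 185 RPM with Setdb1 hairpins. For Gm11019 they were Amigo2, Rpl39l and Krr1 (r between 0.988 and 0.99), and Amigo2 had the same order of all 12 libraries (Spearman rho = 1).

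For Angptl7 they were Cacna1a (0.976), Glipr1 (0.973) and 3110052M02Rik (0.971), of which Glipr1 went from 34.9 RPM through 77.0 and 124 to 197 RPM over the groups control, 5-aza, Setdb1 hairpin and both. For Cpn1 they were Fnbp1l (0.987), Scpep1 (0.986) and Shank2 (0.985). For Apln they were Fabp4 (0.992), a fatty acid binding protein of fat cells at 2.53 and 7.07 RPM without 5-aza, 9430015G10Rik (0.987) and Ezr (0.986). For Capn6 they were Sox12 (0.968), Gem (0.964) and Plxnb1 (0.95). By Spearman correlation at most 2 of each 3 were again among the first 3. Among the 6 genes themselves r ran from 0.348 to 0.967 over 15 pairs, with a median of 0.789.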

How the data were processed

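Poly(A) RNA libraries (TruSeq) of 13 MEF cultures were used, as 1 table of 25965 gene rows. The deposited values are log2 RPM as the authors named them. The submitters' processing notes name CASAVA 1.4 and mm10, and the aligner, counter and strand setting of this table are not given in the sources used here, so reads of a gene and of an antisense partner cannot be told apart. Values were whole multiples of 1 read in 100% of cases (within 0.1 read), genes without a read held 0.9 read, and reads were recovered from these steps. Replicate libraries differed beyond counting error (chi-square per degree of freedom 3.13 to 44.3).

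Genes that reached 1 RPM in 3 or more of 12 libraries were fitted with limma 3.58.1 (R 4.3.3, trend) over all groups, with Benjamini-Hochberg adjustment over 13134 genes and a threshold of 0.05, two-sided. Hairpins were compared with 4 hairpin means and 1 effect of 5-aza per hairpin class. The fits were tested on simulated data. Residuals of the 2 libraries of one hairpin and replicate label correlated at 0.41 to 0.63 in Setdb1 hairpin cells, and at 0.59, 0.15 and 0.0999 in control cells, so 5 of the 6 pairs were over 0.1. Fits without and with the label as a block are both given for 5-aza and the interaction. Hairpins were compared without that block. Named genes are the 6 genes, Setdb1, the 3 genes most like each, tested genes within 100 kb (1 of them is not reported here), and called genes of 4 family lists. Others that are named (Aplnr, Furin, Tek, Tie1, Cpn2, Capn1, Capn2, Angpt4 and marker genes) were singled out after their values were seen. The members and lists were chosen with earlier results of these data known. Sequences came from RefSeq, GENCODE M21 and the study's oligo list. Figures were drawn with matplotlib 3.10.9.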

Additional observations from a re-analysis of the deposited data

Results flagged for a closer look

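Capn6 was flagged because its response to 5-aza was upward in all 3 control hairpin cultures and downward in all 3 Setdb1 hairpin cultures. The difference of the responses was -1.23 on the log2 scale (SE 0.50) and is given without a test, since the gene was chosen for its rises with Setdb1 hairpins.

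One library, which its labels name PGK with 5-aza, has no named hairpin, so the labels put it in no group and it entered no comparison. This library was shallower, with 17.4 M reads in genes against 36.4 to 51.3 M in the hairpin libraries, and 1 read was worth 0.0491 RPM. For 5 of the 6 genes its level was above all 6 control hairpin libraries: 0.196 RPM for 2610507I01Rik (4 reads), 4.32 RPM for Angptl7 (88 reads), 0.245 RPM for Cpn1 (5 reads), 6.18 RPM for Apln and 9.17 RPM for Capn6. The share of all genes tested with such a level in this library was not counted, so nothing is read from 5 of 6. The 95% Poisson intervals of 2610507I01Rik (0.0535 to 0.502 RPM) and Cpn1 (0.0796 to 0.572 RPM) cover levels seen in control libraries. That of Angptl7 (3.46 to 5.32 RPM) lies above the highest control library with 5-aza at 1.39 RPM. Gm11019 was at 3.48 RPM there, within the 3.29 to 5.56 RPM of control hairpins with 5-aza, and Setdb1 was at 47.0 RPM. The study used a PGK sample to identify the variants of that strain, and the genotype of this library and the want of a named hairpin cannot be told apart.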

How the results depend on the processing

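The edgeR alternative was not run because the deposited values are log2 RPM, and limma voom on the recovered reads, chosen after seeing the data, took its place and changed no call of the 6 genes. Gm11019 and Angptl7 in control cells and Gm11019 in Setdb1 hairpin cells were called under every alternative run. Of the 6 genes, the number called for 5-aza in Setdb1 hairpin cells was 1 with median centring and 1 without the filter instead of 2, and 1 to 2 with each library left out. Angptl7 is the gene lost, with an adjusted p of 0.0594 and 0.0862 under the first 2. With the replicate block, 4 of the 6 genes were called for 5-aza in control cells instead of 2. Apln (-0.34, adjusted p 0.0167) and Capn6 (0.72, 0.00342) are added, where 1 of the 3 control pairs correlated at only 0.0999. For the interaction it called 2 instead of 0 (Angptl7 and Capn6), a description from which nothing is read. In Setdb1 hairpin cells the block added Capn6 and Setdb1 (-0.13, adjusted p 0.0366) and changed no other call of these genes.

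Over all genes the block gave 3902 calls instead of 2471 for 5-aza in control cells and 169 instead of 51 for the interaction. For Setdb1 against control hairpins the block was another one, the replicate label alone. It paired luciferase with shSetdb1.6, and each non-silencing library with the shSetdb1.4 library of the same letter. Residuals of these pairs correlated at 0.098, 0.19 and -0.47 without 5-aza and at 0.48, 0.69 and -0.020 with it. That block gave 888 calls instead of 1630 without 5-aza and 4159 instead of 2609 with it. Leaving out 1 library gave 1260 to 2451 calls for 5-aza in control cells (without non-silencing replicate A 1472, B 1260, B with 5-aza 1541), 2191 to 3670 in Setdb1 hairpin cells instead of 3792 (without shSetdb1.4 replicate A 2214, B with 5-aza 2191), 29 to 43 for the interaction (33 without luciferase, 30 and 29 without the non-silencing and shSetdb1.4 replicates B with 5-aza), 721 to 1443 for Setdb1 hairpins without 5-aza (without luciferase 839, non-silencing A 981, shSetdb1.6 721) and 1279 to 3428 with it (of the libraries with 5-aza, without non-silencing A 1621, B 1503, shSetdb1.4 B 1409, shSetdb1.6 1279). Between the Setdb1 hairpins it gave 0 to 6 genes instead of 4, with 0 without shSetdb1.4 replicate A or either shSetdb1.6 library (1441, 735 and 900 genes at an unadjusted p under 0.05 by limma) and 2 without shSetdb1.4 replicate A with 5-aza. With 8 means limma called 0 there, with 1520 genes at an unadjusted p under 0.05, and the lower Setdb1 with shSetdb1.6 then had an adjusted p of 0.202. Between the control hairpins median centring called 3 genes instead of 1. By Spearman correlation 1 of the 3 genes most like 2610507I01Rik, Angptl7, Cpn1 and Apln was kept, 2 for Gm11019 and 0 for Capn6.

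The sign of the Angptl7 interaction turned with log2(RPM + 1), at 0.030 instead of -2.35, since adding 1 RPM flattens the change of a gene near 0 in the controls, and the difference of Setdb1 between control hairpins became -0.015 with median centring. The same scale lowers the Setdb1 hairpin differences, to 0.88 for 2610507I01Rik and 1.64 for Cpn1 without 5-aza. Values that crossed 0 when a library was left out were uncalled or carry no test: Capn6 for Setdb1 hairpins with 5-aza (-0.27 to 0.41), 2610507I01Rik for 5-aza in control cells (-0.59 to 0.41), for the interaction (-0.095 to 0.91), between Setdb1 hairpins (-0.018 to 0.18) and between control hairpins (-0.60 to 1.78), Cpn1 (-0.37 to 0.061) and Apln (-0.16 to 0.12) for 5-aza in Setdb1 hairpin cells, Angptl7 between Setdb1 hairpins (-0.24 to 0.57), Apln between control hairpins (-0.070 to 0.27), and Setdb1 for 5-aza in Setdb1 hairpin cells (-0.23 to 0.014) and for the interaction (-0.14 to 0.11). The cause of the other changes was not tested. Depth limits 2610507I01Rik, with 0 to 3 reads in each control library, and Angptl7 and Cpn1, with 3 to 12 reads there except Angptl7 with 5-aza.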
